A study of Homo sapiens with 6 samples.

Results

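The genes described here encode the subunits of the Mediator complex and of RNA polymerases I, II and III. They were taken from the rows of the count table by their symbols, which were MED followed by digits and an optional L, or POLR1, POLR2 or POLR3 followed by a subunit letter. Antisense rows, the pseudogene POLR2J4 and 12 rows that carry a copy number were left out. This gave 62 genes of 50550 rows, 30 of Mediator and 32 of the polymerases. Within these families rows were taken by symbol, with no measured value. The families themselves were proposed with earlier results of these data known, so their choice was not blind to the data. RNA was sequenced in 6 libraries of U2OS, an established human osteosarcoma cell line, from total RNA with an Illumina TruSeq RNA kit. By title 3 libraries were Lv_LINC00673, whose genotype label is LINC00673, and 3 were Lv_NC. The design text names a knockdown of LINC00673, a long noncoding RNA, and wildtype cells. The sources used here do not say what NC stands for, which vector or sequence Lv stands for, whether a group is 1 clone or a pool, or whether replicates were separate cultures. The p-values below are therefore set against the variation among these 6 libraries alone, part or all of which may be technical.

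Mediator is a large assembly that links transcription factors bound at enhancers and promoters to RNA polymerase II. Its head and middle modules contact the polymerase, its tail binds activators, MED14 runs through the complex as a backbone, and a separable kinase module of MED12, MED13, cyclin C and CDK8 can dock on it. Polymerase I makes ribosomal RNA, polymerase II makes messenger RNA, and polymerase III makes transfer RNA and 5S ribosomal RNA. Each enzyme is built around a pair of large catalytic subunits with smaller subunits around them, several of which are shared between the enzymes. Dividing tumour cells use all of these machines.

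Total counts per library ranged from 61815841 to 87227980. The targeted gene LINC00673 was at 6.55, 6.23 and 6.38 CPM (counts scaled to a common library size with edgeR's TMM factors) in the Lv_LINC00673 libraries and at 9.16, 9.27 and 7.08 CPM in the Lv_NC libraries. Its log2 fold change was -0.41 (SE 0.16), and the adjusted p from the quasi-likelihood test of edgeR was 0.0924, short of the threshold of 0.05. Groups are therefore named by their titles, and every fold change is the libraries labelled Lv_LINC00673 over those labelled Lv_NC. Of 8 mesenchymal and bone markers, 4 (VIM, SPARC, COL1A1 and ALPL) were at or above 1 FPKM (fragments scaled to library size and transcript length) in all 6 libraries, while COL1A2 was at or near 0. The summed FPKM of these 8 genes was 1482 to 1650 in Lv_LINC00673 and 1146 to 1248 in Lv_NC. The 4 blood and 4 endothelial markers all stayed under 1 FPKM, and of 4 epithelial markers CLDN4 and EPCAM were above it (summed FPKM of the 4 genes 12.3 to 13.1 against 8.55 to 10.2). The part of these markers in the results was not tested. Across 11123 genes, which are not independent replicates, the libraries leaned on transcript length in opposite ways. Spearman correlations of a gene's deviation with length were 0.29 to 0.44 in Lv_LINC00673 and -0.43 to -0.36 in Lv_NC. With GC content they were 0.04, -0.63 and -0.60 against 0.16, 0.66 and 0.40, so Lv_LINC00673 replicate 1 stood apart from the other libraries of its group. A second fit with an offset for transcript GC content and length in each library is given beside the results as the offset value.

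All 62 genes had enough counts to be tested. The background was 26.8% of 21933 genes past the threshold (14.3% on the higher and 12.5% on the lower side), with a median log2 fold change of 0.05. Of the 30 Mediator genes 5 rose and 7 fell, and 18 did not pass, with a median log2 fold change of -0.12. Of the 32 polymerase genes 3 rose and 14 fell, and 15 did not pass, with a median of -0.35. In RNA from pooled cells, a change within each cell and a change in the share of cells cannot be told apart. The share of polymerase genes that fell, 43.8%, thus stood above the 12.5% of all genes, and the share of Mediator genes that fell was 23.3%. Scaling by library totals alone raised the median of all genes by 0.17 and moved the split of all calls from 53.5% to 76.8% higher. Under that scaling 6 polymerase genes were higher and 5 lower (all genes 18.5% and 5.58%), and the Mediator median was 0.04. Leaving out Lv_LINC00673 replicate 2 or 3 or Lv_NC replicate 2 left 6, 7 and 8 polymerase genes lower (18.8%, 21.9% and 25.0%). The share of all genes called lower also dropped in those fits, to 5.57%, 5.18% and 6.68%, and the polymerase share stood above it in each.

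**Figure D1:**
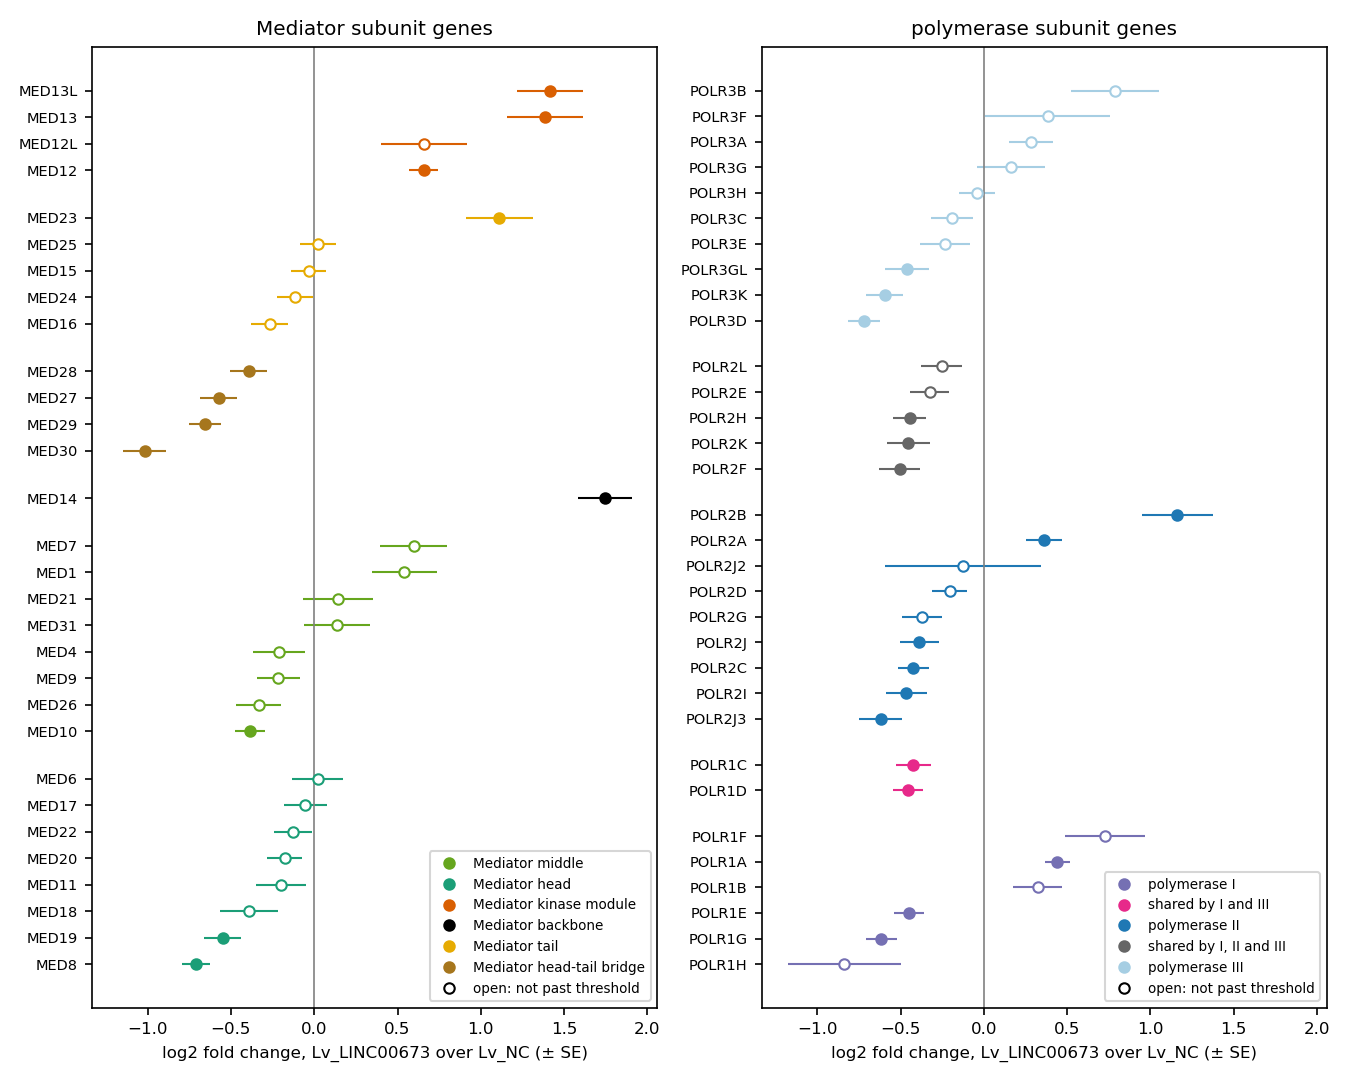
Log2 fold change of each of the 62 subunit genes in Lv_LINC00673 over Lv_NC (x axis, with its standard error as a bar), grouped by module or enzyme in colour. Filled points passed an adjusted p of 0.05 and open points did not. MED14 and the kinase module genes lie to the right, and all 4 head-tail bridge genes and all of the small subunits shared between polymerases lie to the left of 0.

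Members that rose and fell were next looked at by their promoters, because genes on each side moved in opposite directions in the same cells. A RefSeq table of GRCh38.p14 held a promoter entry for 45 of the 62 genes. The 4 stretches below are the 250 bases before the start of a gene that rose and a gene that fell in each family, 5′ to 3′ on the strand of the gene. MED13L lies at chr12:116277694-116277943 on the minus strand, and MED29 at chr19:39391128-39391377, POLR2B at chr4:56978646-56978895 and POLR1G at chr19:45406394-45406643 on the plus strand. Capitals mark matches on either strand to a GC box (GGGCGG) or a CCAAT box (CCAAT).
MED13L: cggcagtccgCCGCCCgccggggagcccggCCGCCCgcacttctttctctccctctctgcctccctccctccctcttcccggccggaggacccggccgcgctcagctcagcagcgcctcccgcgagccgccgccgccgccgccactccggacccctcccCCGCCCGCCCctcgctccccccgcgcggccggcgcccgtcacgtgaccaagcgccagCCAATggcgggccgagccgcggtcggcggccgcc
MED29: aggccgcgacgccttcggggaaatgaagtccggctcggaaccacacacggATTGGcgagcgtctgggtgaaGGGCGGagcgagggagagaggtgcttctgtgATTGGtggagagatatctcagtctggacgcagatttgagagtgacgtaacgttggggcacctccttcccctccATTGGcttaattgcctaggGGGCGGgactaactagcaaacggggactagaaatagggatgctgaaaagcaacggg
POLR2B: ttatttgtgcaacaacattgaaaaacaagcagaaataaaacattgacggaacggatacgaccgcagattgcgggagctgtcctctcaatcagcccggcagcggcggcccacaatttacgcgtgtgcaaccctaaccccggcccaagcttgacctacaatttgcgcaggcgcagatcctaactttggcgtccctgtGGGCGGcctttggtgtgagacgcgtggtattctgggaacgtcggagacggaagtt
POLR1G: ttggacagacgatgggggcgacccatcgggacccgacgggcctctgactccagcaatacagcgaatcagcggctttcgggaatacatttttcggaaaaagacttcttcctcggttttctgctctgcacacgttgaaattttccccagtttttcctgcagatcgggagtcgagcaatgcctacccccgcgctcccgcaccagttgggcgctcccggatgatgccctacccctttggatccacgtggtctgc
The MED13L stretch, of a gene that rose, had 81.2% GC and 4 GC box matches, 2 of them overlapping in part, and 1 CCAAT match. The MED29 stretch, of a gene that fell, had 57.2% GC with 3 CCAAT and 2 GC box matches. The POLR2B stretch had 1 GC box match and that of POLR1G had 0 matches to any motif searched. Motifs were searched on both strands of a window of 300 bases that adds the 50 bases after the start. Shares of all entries are per entry, while a member counted if any of its entries matched (53 entries for 45 genes). The member counts are therefore raised against those shares. As a check of strand, 45 of the 53 entries had their last 20 bases in a GENCODE transcript of the gene. The GC box was in 45.0% of all 35116 promoter entries, in 14 of the 22 Mediator genes with an entry and in 15 of the 23 polymerase genes. The CCAAT box was in 34.6% of all entries, in 8 Mediator genes and in 6 polymerase genes. The ETS motif CCGGAAG was in 10.3% of all entries, in 7 Mediator genes and in 8 polymerase genes. By direction, the GC box was in 5 of 6 genes with an entry that rose and 8 of 12 that fell, CCAAT in 1 and 5, and CCGGAAG in 0 and 4. The TATA box (TATAAA, 11.5% of all entries) was in 2 Mediator genes, MED7 and MED16, and in 0 polymerase genes. The cyclic AMP response element TGACGTCA (1.85% of all entries) was in MED18 and POLR1H. A GC box match can overlap another, and a match is a description of letters, not of binding.

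Levels between genes can be compared only per length, so they are given here in the deposited FPKM values as the mean of 3 libraries. In Lv_NC Mediator genes ranged from 0.19 FPKM for MED12L, a paralogue of MED12, to 70.8 FPKM for the middle module gene MED10, with a median of 7.96 FPKM. Polymerase genes ranged from 0.78 FPKM for POLR1H to 84.7 FPKM for POLR2G, a subunit of the polymerase II stalk, with a median of 19.3 FPKM. The FPKM of MED16, MED18, MED22, POLR1H, POLR2A and POLR3E covers only the row without a copy number, so their levels are understated if the copies are the same gene. The order of levels differed little between the groups, with Spearman correlations of 0.95 over 30 Mediator genes and 0.97 over 32 polymerase genes, which share the libraries and the length model. In Lv_NC, neighbours in this order were apart by more than both of their SDs in 11 of 29 Mediator pairs and 6 of 31 polymerase pairs. In Lv_LINC00673 they were so in 6 and 10 pairs. MED10 and MED15, at the top of the Mediator order, were not apart in Lv_NC. The genes that rose sat in the lower part of the order. MED13L went from rank 26 to rank 20 of 30 (1.80 to 5.47 FPKM), MED13 from 27 to 21 (1.68 to 4.95 FPKM) and MED12 from 17 to 12 (7.30 to 12.9 FPKM). MED14 stood at 0.68 FPKM in Lv_NC and 2.58 FPKM in Lv_LINC00673, near the bottom of the order in both groups. In Lv_NC the level itself fell with transcript length, with a Spearman correlation of -0.57 over the Mediator genes and -0.35 over the polymerase genes.

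**Figure D2:**
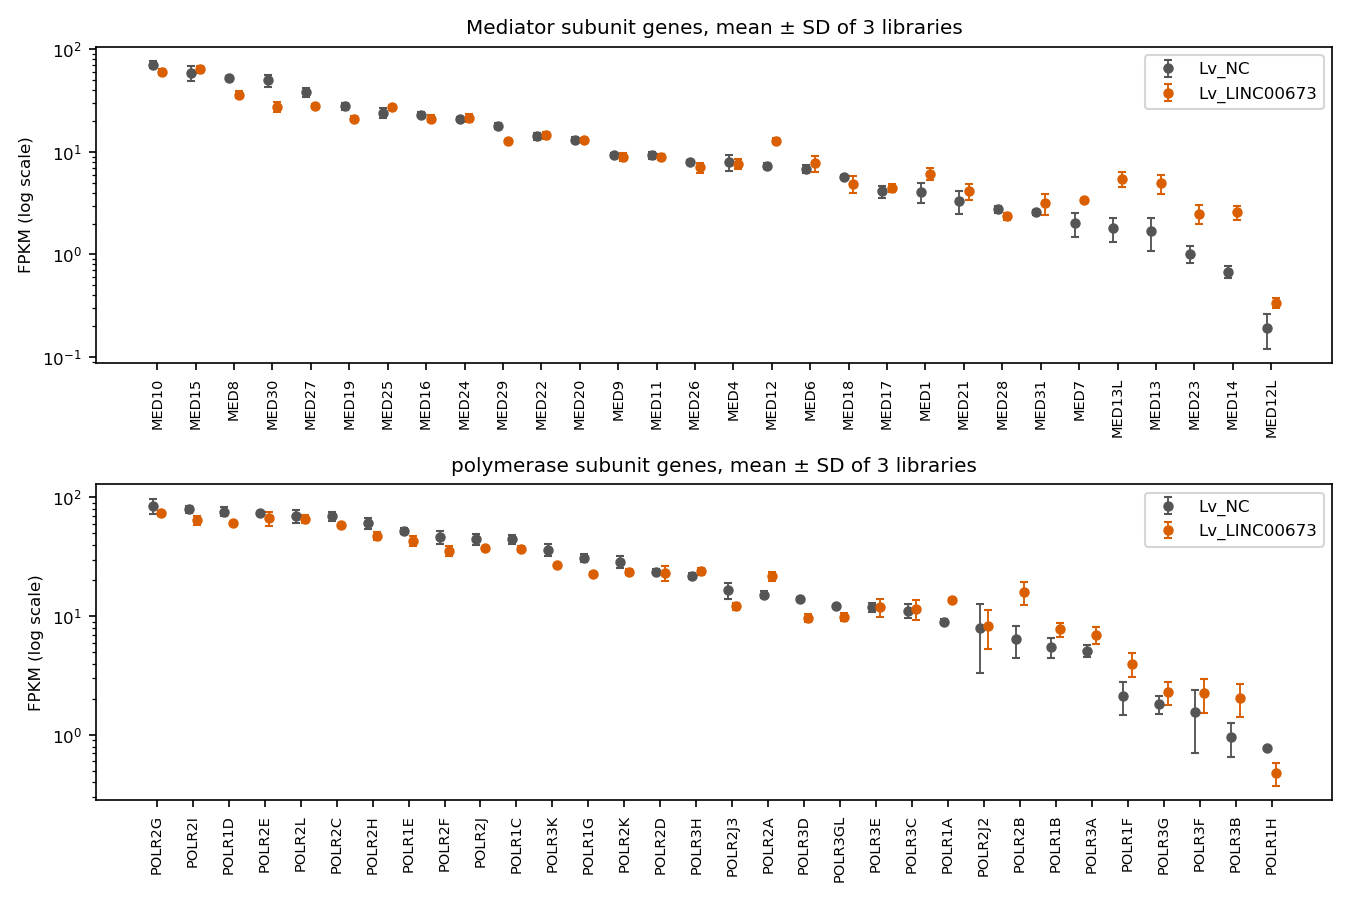
Mean FPKM (log scale, y axis) of each Mediator gene (top) and polymerase gene (bottom) in Lv_NC and Lv_LINC00673, with the SD of 3 libraries as bars, in the order of the Lv_NC means. The groups lie close together for most genes. They are apart toward the low end, where MED13L, MED13, MED23, MED14 and POLR2B were higher in Lv_LINC00673. Near the top of the Mediator order MED8, MED30 and MED27 were lower in Lv_LINC00673.

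In the kinase module 3 of 4 genes rose and 0 fell, with a median log2 fold change of 1.02. MED13L and MED13 encode the paralogous subunits that tether the kinase module to the core complex. MED13L, at chr12:115958576-116277693 (GRCh38.p14), was at 45.9, 61.3 and 48.7 CPM in the Lv_LINC00673 libraries and at 24.8, 14.8 and 18.7 CPM in the Lv_NC libraries. MED13 was at 40.4, 59.2 and 47.9 CPM against 25.6, 14.5 and 16.3 CPM. In both genes the lowest Lv_LINC00673 library stood well above the highest Lv_NC library, which was Lv_NC replicate 1 each time. Their log2 fold changes were 1.42 (SE 0.20, adjusted p = 0.0044) and 1.39 (SE 0.23, adjusted p = 0.00592). MED12, whose product activates the module's kinase through cyclin C, was the most even of the 3, at 88.5, 91.6 and 82.9 CPM against 55.9, 52.8 and 57.9 CPM (log2 fold change 0.66, SE 0.09, adjusted p = 0.00412). MED12L, at 1.68 to 3.78 CPM, did not overlap between groups but did not pass (log2 fold change 0.66, adjusted p = 0.091). With the offset MED13L, MED13 and MED12 were still higher, at log2 fold changes of 0.76, 0.57 and 0.59, while that of MED12L was 0.02. The calls of MED12, MED13 and MED13L held whichever library was left out.

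The catalytic partners of this module were taken as a separate list, and 1 of 3 rose (33.3%, where 14.3% of all genes did). CDK19, the paralogue of CDK8, was at 8.36, 13.7 and 11.1 CPM against 6.01, 4.28 and 4.77 CPM (log2 fold change 1.14, SE 0.22, adjusted p = 0.0092, offset value 0.59). CDK8 itself was at 12.6, 15.5 and 13.2 CPM against 11.2, 10.5 and 11.9 CPM and the cyclin C gene CCNC at 17.6, 25.9 and 25.2 CPM against 22.7, 16.00 and 22.4 CPM, and neither passed (adjusted p = 0.162 and 0.561). The CDK8 libraries did not overlap between groups, whereas those of CCNC did.

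MED14 had the highest log2 fold change of the 62 genes. It lies at chrX:40648305-40736159 and encodes the backbone that holds head, middle and tail together. Its libraries were at 18.1, 22.7 and 19.2 CPM in Lv_LINC00673 and 6.62, 5.16 and 6.16 CPM in Lv_NC, so the groups were apart by several times their spread. The log2 fold change was 1.74 (SE 0.16, adjusted p = 0.00187, a fold of 3.35), and with the offset 1.07 (adjusted p = 0.000273). Of the 5 tail genes only MED23, whose product binds activators such as ELK1, passed. MED23 was at 10.7, 15.4 and 11.5 CPM against 6.78, 4.75 and 5.86 CPM, with a log2 fold change of 1.11 (adjusted p = 0.00765, offset value 0.59). MED15, the tail subunit bound by sterol-responsive factors, was at 267, 229.9 and 218 CPM against 221, 263 and 246 CPM, and the groups overlapped (adjusted p = 0.853). Its log2 fold change of -0.03 became 0.20 with the offset and then passed (adjusted p = 0.0214). MED16, MED24 and MED25 had log2 fold changes of -0.27, -0.12 and 0.02, and their groups overlapped.

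All 4 genes placed at the bridge between head and tail fell, with a median log2 fold change of -0.62. MED30, on chromosome 8 and encoding a subunit found in animals but not in yeast, was at 31.4, 25.5 and 28.03 CPM against 49.1, 62.2 and 60.3 CPM. MED29 was at 47.7, 44.7 and 43.3 CPM against 65.9, 72.6 and 75.4 CPM, and MED27 at 43.5, 37.4 and 38.4 CPM against 65.00, 59.2 and 53.2 CPM. In each of these genes every Lv_LINC00673 library was below every Lv_NC library. MED30 fell by 1.02 on the log2 scale (SE 0.13, adjusted p = 0.00387), MED29 by 0.66 (SE 0.10, adjusted p = 0.00452) and MED27 by 0.57 (adjusted p = 0.00936). MED28, at 24.0 to 26.4 CPM against 31.3 to 35.6 CPM, had the smallest change (log2 fold change -0.39, adjusted p = 0.0303) and passed with all libraries but not without any 1 of them except Lv_LINC00673 replicate 1 (adjusted p up to 0.0958). With the offset MED30, MED29 and MED28 were lower, at log2 fold changes of -0.95, -0.49 and -0.99. MED27 then had -0.22 and did not pass (adjusted p = 0.11). The transcript used for MED28 has 10868 bases, the longest of the members that fell.

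Of the 8 head genes 2 fell and 0 rose. MED8, at chr1:43383917-43389800 and encoding the subunit that anchors the movable jaw of MED18 and MED20, was at 67.00, 66.6 and 73.7 CPM against 111, 111 and 117 CPM. MED19 was at 28.8, 25.1 and 24.7 CPM against 36.5, 37.4 and 41.2 CPM. The gap between the groups was several times the spread within them for MED8 and smaller for MED19. MED8 fell by 0.71 (SE 0.08, adjusted p = 0.00324, offset value -0.48) and MED19 by 0.55 (adjusted p = 0.0106). With the offset MED19 did not pass (-0.23, adjusted p = 0.0783). MED17, the scaffold of the head, was at 20.3 to 25.6 CPM over all 6 libraries with a log2 fold change of -0.05, and its offset value of -0.51 passed in the lower direction (adjusted p = 0.00224). The other head genes, MED6, MED11, MED18, MED20 and MED22, had log2 fold changes between -0.39 and 0.02.

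In the middle module 1 of 8 genes fell and 0 rose. MED10 was at 64.3, 62.9 and 69.8 CPM against 92.5, 82.5 and 82.1 CPM (log2 fold change -0.38, adjusted p = 0.0178) and lost its call only without Lv_LINC00673 replicate 2 (adjusted p = 0.0581). MED1, the docking subunit for nuclear receptors, was at 45.6, 40.7 and 52.6 CPM against 41.1, 23.8 and 30.6 CPM, and the groups overlapped through Lv_NC replicate 1. Its log2 fold change of 0.54 did not pass (adjusted p = 0.0702), but without Lv_NC replicate 1 it was 0.76 and did (adjusted p = 0.0131). MED26, which joins the core complex when the kinase module is absent and recruits elongation factors, was at 24.4, 18.7 and 23.02 CPM against 26.8, 29.8 and 26.8 CPM. Its groups did not overlap, and the log2 fold change of -0.33 did not pass (adjusted p = 0.0962). With the offset MED10 and MED4 were lower (-0.23 and -0.53) and no middle gene was higher.

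**Figure D3:**
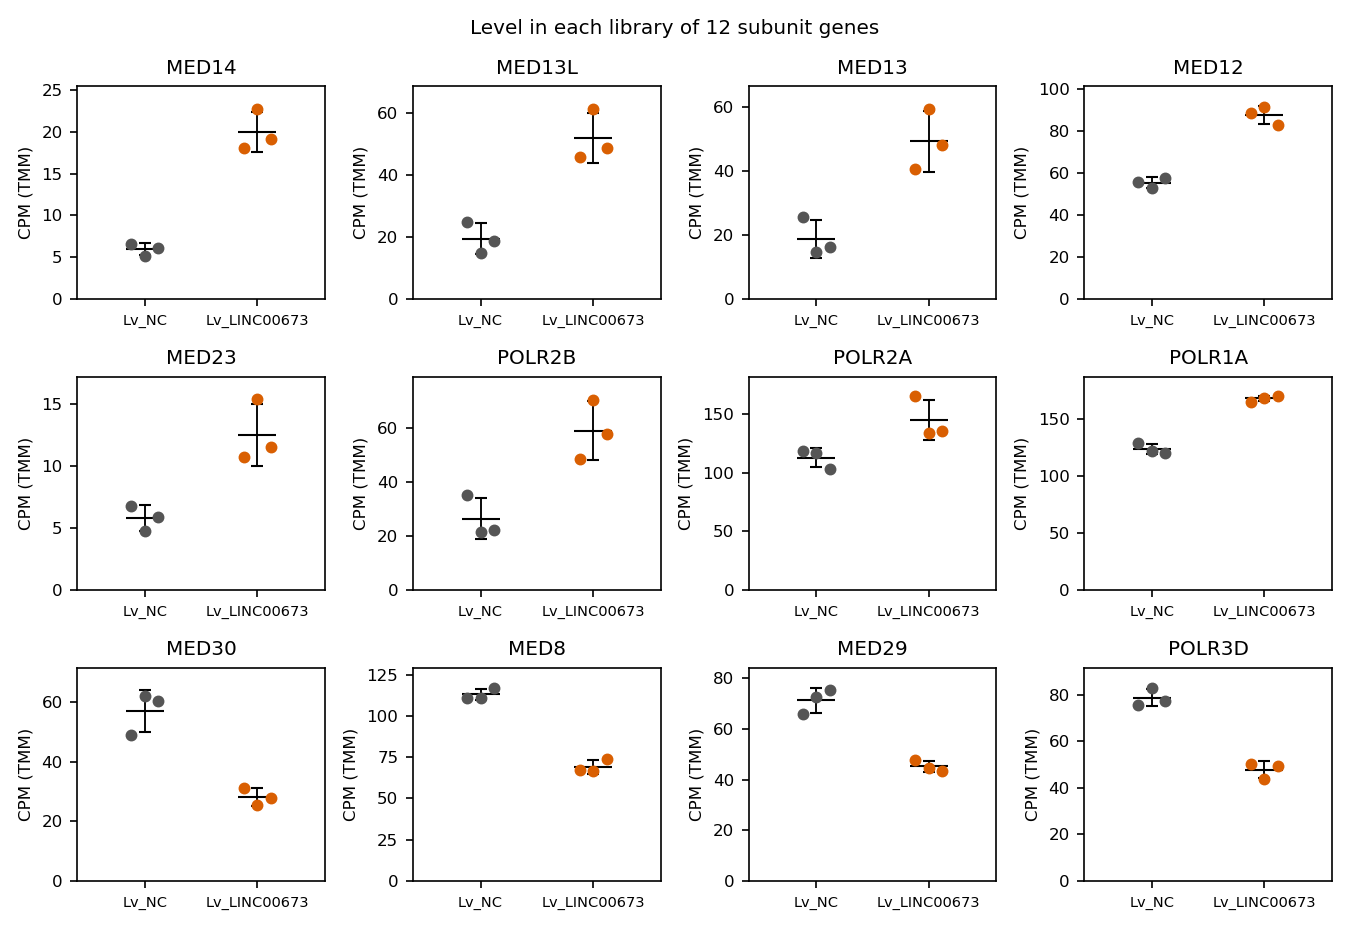
CPM of 12 subunit genes in each library (y axis from 0), with the mean and SD of 3 libraries as a line and bar, for Lv_NC and Lv_LINC00673. The groups are apart in every panel. The Lv_NC and Lv_LINC00673 points come closest for POLR2A, the weakest call of the 12.

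Polymerase II showed its catalytic genes on the higher side and small subunits on the lower side. POLR2A, with the repeat tail that is phosphorylated during transcription, was at 165, 134 and 135 CPM against 118, 117 and 103 CPM. POLR2B, at chr4:56978896-57031158, encodes its partner in the catalytic cleft and was at 48.8, 70.5 and 57.99 CPM against 35.3, 21.6 and 22.4 CPM. Both genes were higher in every Lv_LINC00673 library, by a wide margin for POLR2B and a narrow one for POLR2A. POLR2B rose with a log2 fold change of 1.16 (SE 0.21, adjusted p = 0.00772, offset value 0.77), and its call held whichever library was left out. POLR2A had 0.36 (SE 0.11, adjusted p = 0.04), and that call was lost whichever library was left out (adjusted p 0.0593 to 0.148). A further row of POLR2A with a copy number held 10562 to 14258 counts per library against 7539 to 12060 in its own row. Summed, they gave a log2 fold change of 0.28 that did not pass (adjusted p = 0.0545). With the offset POLR2A alone was at 0.31 and passed (adjusted p = 0.0116).

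Of the other 7 polymerase II genes 4 fell and 0 rose. POLR2J3 was at 19.4, 20.8 and 19.6 CPM against 35.1, 26.7 and 29.95 CPM and fell by 0.62 (adjusted p = 0.0116, offset value -0.90). POLR2J was at 39.1, 36.6 and 36.6 CPM against 41.8, 52.5 and 52.6 CPM and fell by 0.39 (adjusted p = 0.0398), with an offset value of the other sign, 0.06, that did not pass. POLR2J, POLR2J2 and POLR2J3 are near-identical genes on chromosome 7, so how reads were split among them is uncertain. POLR2J2 scattered widely, at 20.01, 9.17 and 19.5 CPM against 9.50, 29.8 and 13.8 CPM, and gave no direction (SE 0.47). POLR2C, part of the assembly platform, and POLR2I, needed for accurate transcription, had log2 fold changes of -0.42 and -0.46 (adjusted p = 0.0142 and 0.0244). Neither passed with the offset (-0.16 and -0.01), and both calls were lost without Lv_LINC00673 replicate 2 or 3, that of POLR2I also without Lv_NC replicate 2 or 3 (adjusted p up to 0.0587 and 0.0899). POLR2J was likewise lost without any of these 4 libraries (adjusted p up to 0.137). The stalk genes POLR2D and POLR2G had -0.20 and -0.37 and did not pass, although POLR2D was lower with the offset (-0.46, adjusted p = 0.00226).

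Subunits shared between enzymes moved only downward where they passed. POLR1C and POLR1D, the pair on which polymerases I and III are assembled, both fell. POLR1C was at 50.6, 43.8 and 44.96 CPM against 66.5, 64.3 and 56.1 CPM and POLR1D at 56.9, 54.4 and 55.8 CPM against 70.02, 81.9 and 77.02 CPM. Their log2 fold changes were -0.42 and -0.45 (adjusted p = 0.0214 and 0.0103), and both were lower with the offset (-0.42 and -0.53). The POLR1D call held whichever library was left out, while that of POLR1C was lost without Lv_LINC00673 replicate 2 or 3 or Lv_NC replicate 1 or 2 (adjusted p up to 0.0785). Of the 5 subunits common to all 3 enzymes, POLR2F, POLR2H and POLR2K fell and POLR2E and POLR2L did not pass. POLR2F was at 81.1, 66.1 and 64.7 CPM against 97.3, 113 and 91.1 CPM and fell by 0.51 (adjusted p = 0.0182). POLR2H and POLR2K had log2 fold changes of -0.45 and -0.45 (adjusted p = 0.0146 and 0.0312). Each of these 3 calls was lost without Lv_LINC00673 replicate 2, that of POLR2F also without Lv_LINC00673 replicate 3 or Lv_NC replicate 2, that of POLR2H also without Lv_NC replicate 3, and that of POLR2K without any library but Lv_NC replicate 1. The adjusted p then reached 0.0753, 0.0621 and 0.111. With the offset only POLR2K, the one of the 5 with a low GC content (35.2%), was lower (-0.72), and POLR2F and POLR2H had -0.15 and -0.05.

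Among the 6 genes particular by name to polymerase I, 1 rose and 2 fell. POLR1A, the largest subunit, was at 165, 168 and 169.7 CPM against 129, 121 and 120.2 CPM, a difference several times the spread in either group (log2 fold change 0.44, SE 0.08, adjusted p = 0.00702). With the offset it was 0.16 and did not pass (adjusted p = 0.0606). POLR1B, its catalytic partner, was at 52.8, 64.03 and 54.6 CPM against 52.02, 36.4 and 48.6 CPM and did not pass (log2 fold change 0.32, adjusted p = 0.138). POLR1G and POLR1E encode a pair of subunits that acts in initiation and elongation, and both fell. POLR1G, at chr19:45406644-45410737, was at 64.02, 59.3 and 64.6 CPM against 93.2, 90.6 and 104 CPM and POLR1E at 74.2, 83.97 and 77.1 CPM against 113, 107 and 101 CPM. POLR1G fell by 0.61 (SE 0.09, adjusted p = 0.00477) and POLR1E by 0.45 (adjusted p = 0.00984). With the offset POLR1G was lower (-0.40) and POLR1E did not pass (-0.19, adjusted p = 0.105). POLR1F, the stalk subunit that meets the initiation factor RRN3, had 0.73 and did not pass (adjusted p = 0.0549). POLR1H was spread over 8 rows of the table. Its own row held 22 to 61 counts per library and did not pass (log2 fold change -0.84, adjusted p = 0.102), and with the 8 rows summed its log2 fold change was -0.74 (adjusted p = 0.0162).

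In polymerase III 3 of 10 genes fell and 0 rose. The catalytic genes POLR3A and POLR3B did not pass. POLR3A was at 42.9, 52.4 and 40.6 CPM against 41.5, 36.3 and 33.98 CPM (log2 fold change 0.28, adjusted p = 0.144) and POLR3B at 6.61, 9.65 and 10.03 CPM against 5.32, 3.42 and 6.49 CPM (0.79, adjusted p = 0.0555). POLR3B was higher in every Lv_LINC00673 library, by a narrow margin in the lowest of them, and without Lv_LINC00673 replicate 1 it passed at 0.94 (adjusted p = 0.0332). POLR3D, on chromosome 8 and encoding a subunit for initiation and termination, was at 50.4, 43.7 and 49.3 CPM against 75.7, 82.7 and 77.4 CPM, with the groups far apart. It fell by 0.72 (SE 0.10, adjusted p = 0.00412, offset value -0.81). POLR3K, which trims the nascent RNA and aids termination, was at 37.1, 34.7 and 36.8 CPM against 55.2, 61.2 and 47.7 CPM and fell by 0.60 (adjusted p = 0.00879, offset value -0.52). POLR3G and POLR3GL encode alternative versions of 1 subunit, the first of which is known from stem and tumour cells. POLR3GL was at 12.1, 11.9 and 10.4 CPM against 15.9, 16.05 and 15.5 CPM and POLR3G at 5.77, 8.08 and 8.54 CPM against 6.46, 5.68 and 7.89 CPM. POLR3GL fell by 0.46 (adjusted p = 0.0324), but not with the offset (-0.20) or without any 1 library other than Lv_LINC00673 replicate 1 (adjusted p 0.0634 to 0.121). POLR3G overlapped between groups and did not pass (0.16, offset value -0.31). The difference between the POLR3G and POLR3GL fold changes was not tested. POLR3E did not pass in its own row (-0.23), but its copy row had a log2 fold change of -0.80 (adjusted p = 0.00469), and summed they had -0.50 (adjusted p = 0.00565).

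Set side by side by library, the families differed in how far the Lv_LINC00673 libraries lay from the mean of the Lv_NC libraries. The median deviation of the Mediator genes was -0.08, -0.13 and -0.17 in the 3 Lv_LINC00673 libraries, and that of the polymerase genes -0.30, -0.41 and -0.39, on the log2 CPM scale. In the Lv_NC libraries the Mediator median less the polymerase median was -0.01, -0.08 and 0.05, and in the Lv_LINC00673 libraries 0.22, 0.28 and 0.22. The Lv_NC values are drawn to 0 because each deviation is taken from the mean of those same libraries, so they are no control. These medians carry no test. Without Lv_LINC00673 replicate 1, the library that stood apart, 5 Mediator genes rose and 9 fell and 4 polymerase genes rose and 14 fell (all genes 14.2% higher and 14.4% lower). Every Lv_LINC00673 library lay on 1 side of every Lv_NC library in CPM for 7 Mediator genes on the higher and 10 on the lower side, and for 5 and 17 polymerase genes, where 23.7% and 21.4% of all genes tested did so. In FPKM, which is not scaled by TMM factors, these counts were 8 and 8 for Mediator and 7 and 15 for the polymerases (all genes 29.7% and 13.1%). With the GC and length offset the 2 families had the same median of -0.06. The offset fit called 31.8% of 16851 genes, 16.2% higher and 15.6% lower, and without the offset the same genes gave 33.1%, 17.9% and 15.2%. It called 6 Mediator genes higher and 7 lower, and 2 polymerase genes higher and 8 lower, so 25.0% of the polymerase genes were called lower beside 15.6% of all genes. Of the 12 Mediator calls made without the offset 10 were made again in the same direction, and of the 17 polymerase calls 9.

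**Figure D4:**
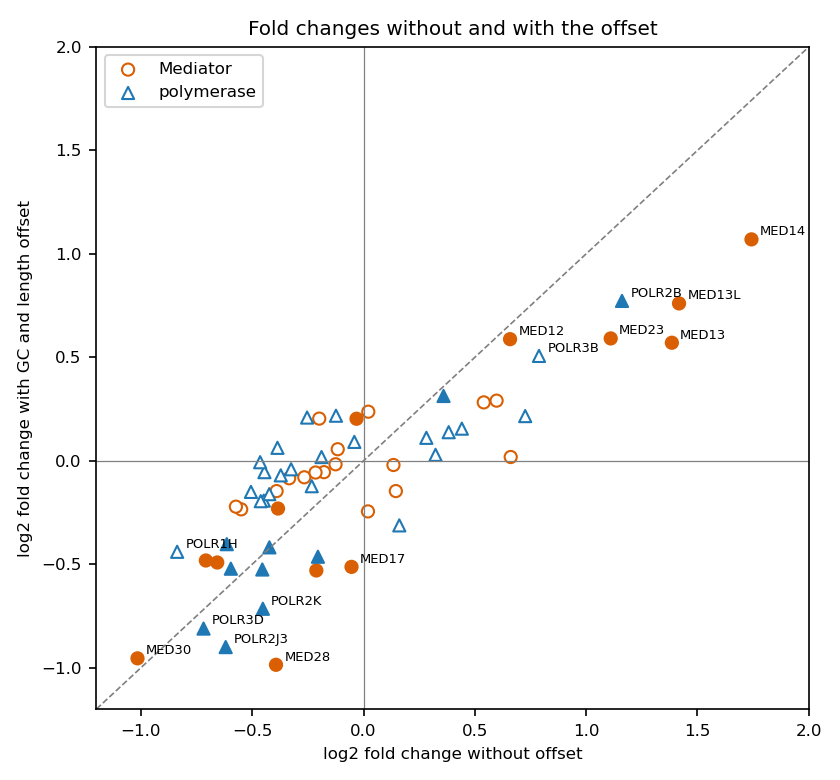
Log2 fold change of each of the 62 genes without (x axis) and with (y axis) the GC and length offset, circles for Mediator and triangles for polymerase genes. Filled symbols passed an adjusted p of 0.05 with the offset, and the dashed line marks equal values. MED14 moved from 1.74 to 1.07 and MED28 from -0.39 to -0.99, while MED12 and MED30 lay near the line.

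Fold changes of the members followed transcript length. The Spearman correlation of log2 fold change with length was 0.56 over the 30 Mediator genes and 0.44 over the 32 polymerase genes, and with GC content -0.44 and -0.26. These are descriptions over genes that share the same 6 libraries. Up to 2000 bases 0 Mediator genes rose and 5 of 10 fell, and 0 polymerase genes rose and 6 of 10 fell, with medians of -0.39 and -0.45. Above 2000 and up to 4000 bases 1 of 10 Mediator genes and 5 of 11 polymerase genes fell and 0 rose. Above 4000 bases 5 of 10 Mediator genes rose and 1 fell, and 3 of 11 polymerase genes rose and 3 fell, with medians of 0.66 and 0.28. Over all tested genes with a length the medians in these classes were -0.18, -0.05 and 0.31. All 8 members that rose thus had longest transcripts above 4000 bases. The shares of all genes called within these length classes were not counted. The split of calls by length can therefore not be read as particular to the members. After the offset the correlation with length was 0.44 for Mediator and 0.13 for the polymerases. Length here is that of the longest transcript, and the deposited FPKM rests on shorter lengths for some members, POLR1D and POLR2J3 among them. In Lv_LINC00673 POLR1D (4592 bases) was at a mean of 55.7 CPM and 60.9 FPKM. POLR2J3 (4630 bases) was at 19.9 CPM and 12.1 FPKM. POLR1C (2444 bases) was at 46.5 CPM and 37.0 FPKM. POLR2G (1556 bases) was at 56.9 CPM and 73.2 FPKM, and POLR2I (913 bases) at 28.0 CPM and 64.2 FPKM. These genes are examples, not a full list. The offset values of such genes use the longer lengths, and the part of this in them was not tested.

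**Figure D5:**
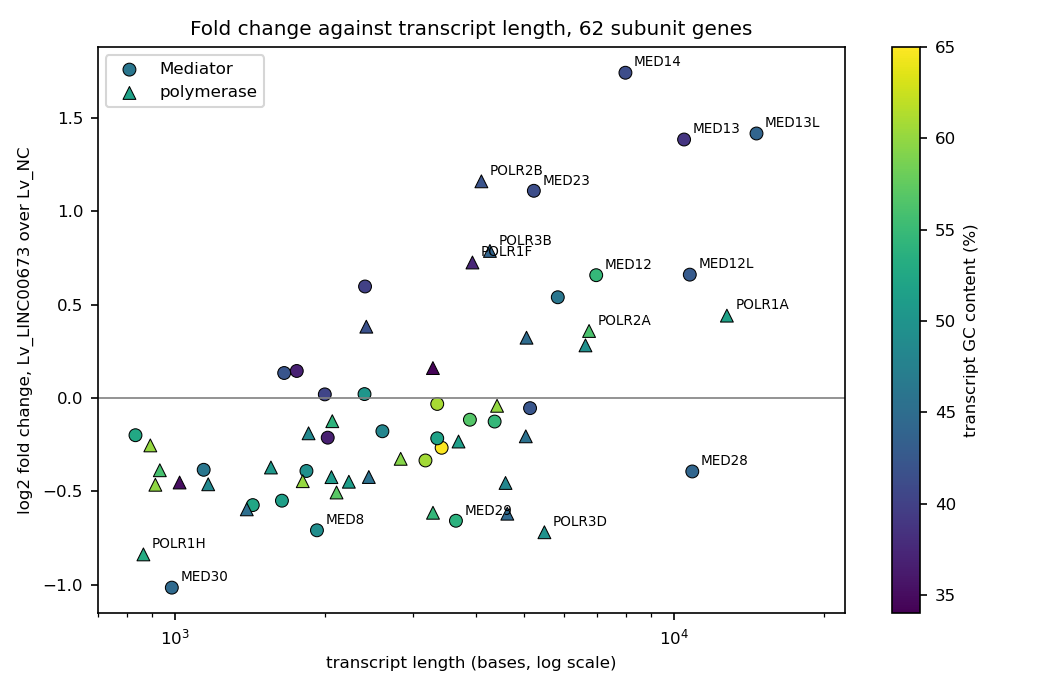
Log2 fold change (y axis) of the 62 genes against the length of their longest transcript (x axis, log scale), coloured by transcript GC content, circles for Mediator and triangles for polymerase genes. All 8 genes that rose lie above 4000 bases. POLR3D, POLR2J3 and MED28 fell although their longest transcripts are long, but the deposited FPKM of POLR2J3 rests on a shorter length.

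The general factors that work with these enzymes were counted from lists of other genes. Beside them, 14.3% of all genes tested were higher and 12.5% lower, and with the offset 16.2% and 15.6%. Of 18 polymerase II initiation factors 1 rose and 2 fell (5.56% and 11.1%, under the shares of all genes, median log2 fold change -0.18). GTF2A1 rose (0.98) and GTF2A2, which encodes the other part of TFIIA, fell (-0.53), as did the TFIIH helicase gene ERCC2 (-0.68). With the offset 0 of the 18 were higher and 5 lower (27.8%, where 15.6% of all genes were), GTF2A2 and ERCC2 among them and with them GTF2E1, GTF2H5 and MNAT1 (-0.57, -0.82 and -0.67), named after their values were seen. Of 16 TAF genes of TFIID 7 rose and 2 fell (43.8% and 12.5%, median 0.27), led by TAF2, TAF9B and TAF15 at log2 fold changes of 1.41, 1.41 and 1.20. The 2 that fell, chosen for mention after their values were seen, were TAF10 (-0.39) and TAF12 (-0.66). With the offset 7 TAF genes were higher and 3 lower, TAF12 (-0.45) and with it TAF8 and TAF13 (-0.50 and -0.59), while TAF10 was at 0.02 and did not pass (adjusted p = 0.884). TAF2 was at 24.96, 30.5 and 25.9 CPM against 13.5, 6.90 and 10.1 CPM, and TAF15 at 73.7, 84.3 and 71.3 CPM against 41.9, 39.6 and 18.2 CPM, with Lv_NC replicate 3 the lowest. Of 22 pause and elongation genes 7 rose and 5 fell (31.8% and 22.7%, median 0.25). LARP7, SUPT16H and CTR9 rose by log2 fold changes of 1.42, 1.22 and 1.19. LARP7 belongs to the complex that holds the kinase P-TEFb inactive, SUPT16H to the histone chaperone FACT and CTR9 to the PAF1 complex. The 5 that fell, named after their values were seen, were the 4 genes of the pausing factor NELF (NELFA -0.56, NELFB -0.33, NELFCD -0.31 and NELFE -0.49) and ELL (-0.48). With the offset 6 of the list were higher and 2 lower, NELFA (-0.33) and ELL (-0.31), and NELFB, NELFCD and NELFE did not pass. NELFA was also the only 1 of these 5 whose call held whichever library was left out. Without Lv_LINC00673 replicate 2 or 3, or Lv_NC replicate 2 or 3, it was the only gene of the list that fell, and without Lv_NC replicate 1 there were 3 that fell (highest adjusted p 0.121 for NELFB, 0.105 for NELFCD, 0.105 for NELFE and 0.0895 for ELL). Without Lv_LINC00673 replicate 1 the list had 9 that rose and 8 that fell, and without Lv_NC replicate 3 it had 4 that rose. LARP7 was lost without Lv_LINC00673 replicate 2 or 3 or Lv_NC replicate 3 (highest adjusted p 0.0633), while SUPT16H and CTR9 held. Among the TAF genes TAF2, TAF4B and TAF9B on the higher side and TAF12 on the lower side held whichever library was left out, and without Lv_LINC00673 replicate 2 no TAF gene other than TAF2, TAF4B and TAF9B rose. TAF15 and TAF10 did not hold (highest adjusted p 0.0748 and 0.0822). GTF2A1 was lost without Lv_LINC00673 replicate 2 or 3 or Lv_NC replicate 3 (highest adjusted p 0.104).

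Of 7 polymerase I factors 2 rose and 0 fell (28.6% and 0%, beside 14.3% and 12.5% of all genes). RRN3 and TAF1B rose, at log2 fold changes of 0.99 and 0.85 (median of the list 0.42). Both load polymerase I at ribosomal gene promoters, and both were higher with the offset (0.60 and 0.53). Of 16 polymerase III factors 2 rose and 2 fell (12.5% each, near the shares of all genes, median -0.08). BDP1 of TFIIIB and GTF3C3 of TFIIIC rose (1.25 and 0.95), and SNAPC5 fell (-0.39). MAF1, the repressor of polymerase III, was at 307, 244 and 260.0 CPM against 329, 359 and 360.2 CPM and fell by 0.37, with an offset value of 0.00 that did not pass; it is named after its values were seen. Of 8 assembly and related genes 25.0% rose and 12.5% fell. RPAP2 and RPAP3, which help to build polymerase II, rose (1.28 and 1.04) and POLRMT, the mitochondrial RNA polymerase, fell (-0.44). With the offset 1 of the 8 assembly and related genes was higher (RPAP3, 0.50) and 3 were lower (GPN1 -0.35, GPN2 -0.24 and POLRMT -0.33). The calls of GTF2A1, BDP1 and RPAP2 were lost in that fit (adjusted p = 0.148, 0.197 and 0.0552). Without Lv_LINC00673 replicate 2, Lv_LINC00673 replicate 3 or Lv_NC replicate 3 no polymerase I or III factor passed, and of the assembly genes RPAP2 alone did. The highest adjusted p with 1 library left out was 0.0693 for RRN3, 0.0938 for TAF1B, 0.107 for BDP1, 0.0768 for GTF3C3, 0.136 for SNAPC5, 0.104 for MAF1, 0.079 for RPAP3 and 0.0743 for POLRMT. Over all 7 lists 13 of the 34 called genes held whichever library was left out. Over all genes tested the share called also depended on the library left out. It was 6.41% higher and 5.57% lower without Lv_LINC00673 replicate 2, 7.33% and 5.18% without Lv_LINC00673 replicate 3, 14.2% and 10.3% without Lv_NC replicate 1, 9.16% and 6.68% without Lv_NC replicate 2, and 6.90% and 5.84% without Lv_NC replicate 3.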

How the data were processed

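RNA was measured in 6 U2OS libraries, 3 per group by title. The authors deposited raw read counts per gene and FPKM values per gene, and 0 sample columns were left unmatched. The build was hg38 per the submitters' processing notes. The sources used here do not give the aligner, counter, annotation, strand setting or FPKM length model. Rows without a symbol (3.22 to 4.26% of counts) stayed in library sizes. Total counts are in the report, and depth sets the precision of low genes.

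The main test was the robust two-sided quasi-likelihood test of edgeR 4.0.16 (R 4.3.3) on counts with TMM factors. The filterByExpr filter kept 21933 genes, over which p-values were adjusted by Benjamini-Hochberg, with a threshold of 0.05. SE is the log2 fold change over the square root of F. The test recovered known changes on simulated counts. That simulation used the same dispersion for every gene and no GC or length trend, so it cannot speak for the calls in these libraries. Every adjusted p is from this test, or from the same test with the offset, unless another is named.

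The offset fit used 16851 genes with GC content and length of the longest transcript other than a retained intron (GENCODE 29), a spline with 5 degrees of freedom for each, fitted above a mean log2 CPM of 2. Other alternatives were RLE factors, library totals, other filters, DESeq2 1.42.0, limma 3.58.1 on log2(FPKM + 1) and log2(FPKM + 0.1), a replicate block, each library left out and copies summed. The pairing check is in the closing section. Coordinates and promoters come from RefSeq tables of GRCh38.p14.

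The members and lists were chosen with earlier results of these data known. Values per library are given for 14 fixed members (MED14, MED1, MED12, MED13, MED15, MED26, POLR2A, POLR2B, POLR1A, POLR1B, POLR3A, POLR3B, POLR3G and POLR3GL), for the 5 highest and 5 lowest called log2 fold changes in each family, and for near-identical POLR2J genes. Up to 3 called genes of each related list are named by the same kind of rule, of which CDK19, TAF2 and TAF15 have values per library. CDK8, CCNC, MAF1, MED10, POLR1C, POLR1D and POLR1E have them outside these rules. Other members were named after their values were seen, to complete the count of their class.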

Additional observations from a re-analysis of the deposited data

How the results depend on the processing

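Under 17 other settings the named members that passed kept their direction, except POLR2J, whose log2 fold change was 0.0627 with the offset (0.0665 with the block too). Sign changes of members that did not pass were those of MED15, with 0.133 for library totals, 0.0040 for at least 1 CPM in 3 libraries, 0.130 and 0.132 for FPKM with pseudocounts of 1 and 0.1, 0.203 and 0.202 for the offset without and with the block, and -0.134 to 0.0228 with 1 library left out. POLR2J2 had 0.0430, 0.10, 0.119, 0.218 and 0.316 under the same settings other than the CPM filter, and -0.430 to 0.475 with 1 library left out. POLR3G had -0.312 with the offset and -0.303 with the block too. The cause of these changes was not tested.

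Replicate numbers did not pair the libraries, as correlations of same-numbered deviations were -0.42, -0.36 and 0.04. Those of differently numbered libraries ranged from -0.14 to 0.45. The highest were 0.45 for Lv_LINC00673 replicate 1 with Lv_NC replicate 2 and 0.35 for Lv_LINC00673 replicate 2 with Lv_NC replicate 1. What such libraries share was not tested. With the number as a replicate block 1208 of 21933 genes passed, 800 higher and 408 lower. In that fit 3 Mediator genes were lower, and 1 polymerase gene was higher and 2 lower. With the block and the offset 3868 genes passed (1958 of 16851 lower) and 7 polymerase genes were lower. Library totals gave 6 polymerase genes higher and 5 lower, where 4051 and 1224 of 21933 genes were. The CPM filter and DESeq2 gave 5 and 5 higher, where 3303 of 16080 and 3649 of 21933 genes were. FPKM with pseudocounts of 1 and 0.1 gave 6 and 8 lower (1220 and 1244 of 21933 genes), and the offset 8 lower (2632 of 16851 genes). Mediator medians were 0.0433 with library totals, 0.0362 and 0.0380 with FPKM, and -0.0558 and -0.0594 with the offset without and with the block. Polymerase medians in that order were -0.185, -0.174, -0.176, -0.0626 and -0.0565. Leaving out 1 library gave 2716 to 6490 genes that passed, 5 to 7 Mediator genes higher and 5 to 9 lower, 2 to 4 polymerase genes higher and 6 to 14 lower, and medians of -0.19 to -0.10 and -0.42 to -0.31. Counting limited POLR1H most, at 22 to 61 counts per library in its own row.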
